A study of Mus musculus with 20 samples.

Results

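The syndecan family was examined in hearts of 20 mice, each measured on 1 oligonucleotide array. Its members were 4 of the 8251 genes named on the array, Sdc1, Sdc2, Sdc3 and Sdc4, read by the 6 of 12422 probe sets (controls left out) that carry one of these symbols and no other. The family was chosen from earlier results of these data, in which Sdc4 was high in hearts of mice fed alpha-tocopherol. Values of the members in the comparison of alpha-tocopherol with old controls are therefore given as a description, with no test.

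All animals were male hybrids of the B6 and C3H strains, housed singly, and every label gives an F1 hybrid except those of old controls 1 and 4, which give a hybrid without that mark. The 4 groups held 5 animals each. Young controls were 5 months old and old controls 30 months old, both on the control diet. The alpha-tocopherol group received 1000 mg/kg of alpha-tocopherol, and the group on both tocopherols received 500 mg/kg of alpha- and 500 mg/kg of gamma-tocopherol, in either case from 15 months of age until 30 months. Both compounds are forms of vitamin E, and gamma-tocopherol lacks one of the ring methyl groups of alpha-tocopherol. The supplemented groups differ both in the dose of alpha-tocopherol and in the presence of gamma-tocopherol, and these cannot be told apart.

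Syndecans are cell surface proteoglycans. A single span through the membrane joins an outer part, which carries heparan sulfate chains, to a short tail inside the cell. The chains hold growth factors and matrix proteins and present them to their receptors, and the tail binds adaptor proteins, kinases and the cytoskeleton. Proteases can shed the outer part from the cell. Syndecan-4 is widely expressed and sits in focal adhesions, where its tail activates protein kinase C alpha, and in the loaded heart it is known to take part in calcineurin and NFAT signalling. Syndecan-1 is best known from epithelia and plasma cells, syndecan-2 from fibroblasts and other mesenchymal cells, and syndecan-3 from the nervous system.

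The promoters of Sdc4 and Sdc1 are shown because these were the members with a probe set higher on all 5 alpha-tocopherol arrays than on every old control array. The family was chosen from that comparison, in which 16.2% of all tested probe sets did not overlap. RefSeq windows of GRCm38.p6, from 250 bases before to 50 bases after the gene start, held entries for 3 of the 4 genes (Sdc1, Sdc3 and Sdc4). Capitals mark matches, on either strand, to the GC box core GGGCGG, the TATA core TATAA and the NF-kappaB consensus.
Sdc4, chr2:164443139-164443438, minus strand: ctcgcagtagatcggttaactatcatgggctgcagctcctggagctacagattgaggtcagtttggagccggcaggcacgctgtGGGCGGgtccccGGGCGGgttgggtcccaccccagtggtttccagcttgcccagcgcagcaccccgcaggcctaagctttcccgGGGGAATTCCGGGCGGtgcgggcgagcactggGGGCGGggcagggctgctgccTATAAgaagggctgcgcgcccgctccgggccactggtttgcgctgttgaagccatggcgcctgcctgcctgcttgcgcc
Sdc1, chr12:8771146-8771445, plus strand: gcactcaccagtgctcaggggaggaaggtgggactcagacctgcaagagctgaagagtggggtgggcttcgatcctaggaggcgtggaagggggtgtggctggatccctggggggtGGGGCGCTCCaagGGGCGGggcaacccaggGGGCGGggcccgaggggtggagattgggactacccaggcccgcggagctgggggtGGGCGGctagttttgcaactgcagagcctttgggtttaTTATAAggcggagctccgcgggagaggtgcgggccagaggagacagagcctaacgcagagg
The Sdc4 window held 4 matches to GGGCGG, 1 to TATAA and 1 to the NF-kappaB consensus. In the Sdc1 window there were 3 matches to GGGCGG, 2 overlapping matches to TATAA on opposite strands, and 1 to the NF-kappaB consensus. The Sdc3 window had 3 matches to GGGCGG and 0 to either other motif. In both printed windows the NF-kappaB match lies beside a GC box, with 0 bases between them in Sdc4 and 3 in Sdc1. Among all 32851 windows of this length, GGGCGG occurred in 35.7%, TATAA in 24.9% and the NF-kappaB consensus in 8.46%. These matches describe letters in the genome and were not measured in these hearts.

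A value below is log2(intensity + 58). The added 58 is the 10th percentile over the deposited table, so differences of dim probe sets are understated. Of the 6 members, 4 passed a filter that left out the dimmest 40% of probe sets by their mean over all arrays, and these were tested among 7453. They were Sdc4 (98590_at), Sdc1 (161370_f_at), Sdc2 (95104_at) and Sdc3 (98847_at). Sdc3 passed narrowly, with a mean of 8.717 against a limit of 8.716. The other Sdc1 and Sdc2 probe sets (96033_at and 162215_f_at) lay below the limit, with means of 7.25 and 6.84. Names ending in _f_at mark probe sets whose probes can also match related sequences, which limits what 161370_f_at and 162215_f_at say of Sdc1 and Sdc2. Differences were tested with limma over all 20 arrays, and an adjusted p is a Benjamini-Hochberg value, called below 0.05, over the 7453 tested probe sets unless another filter is named. Array medians lay within 0.115 of each other.

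**Figure D1:**
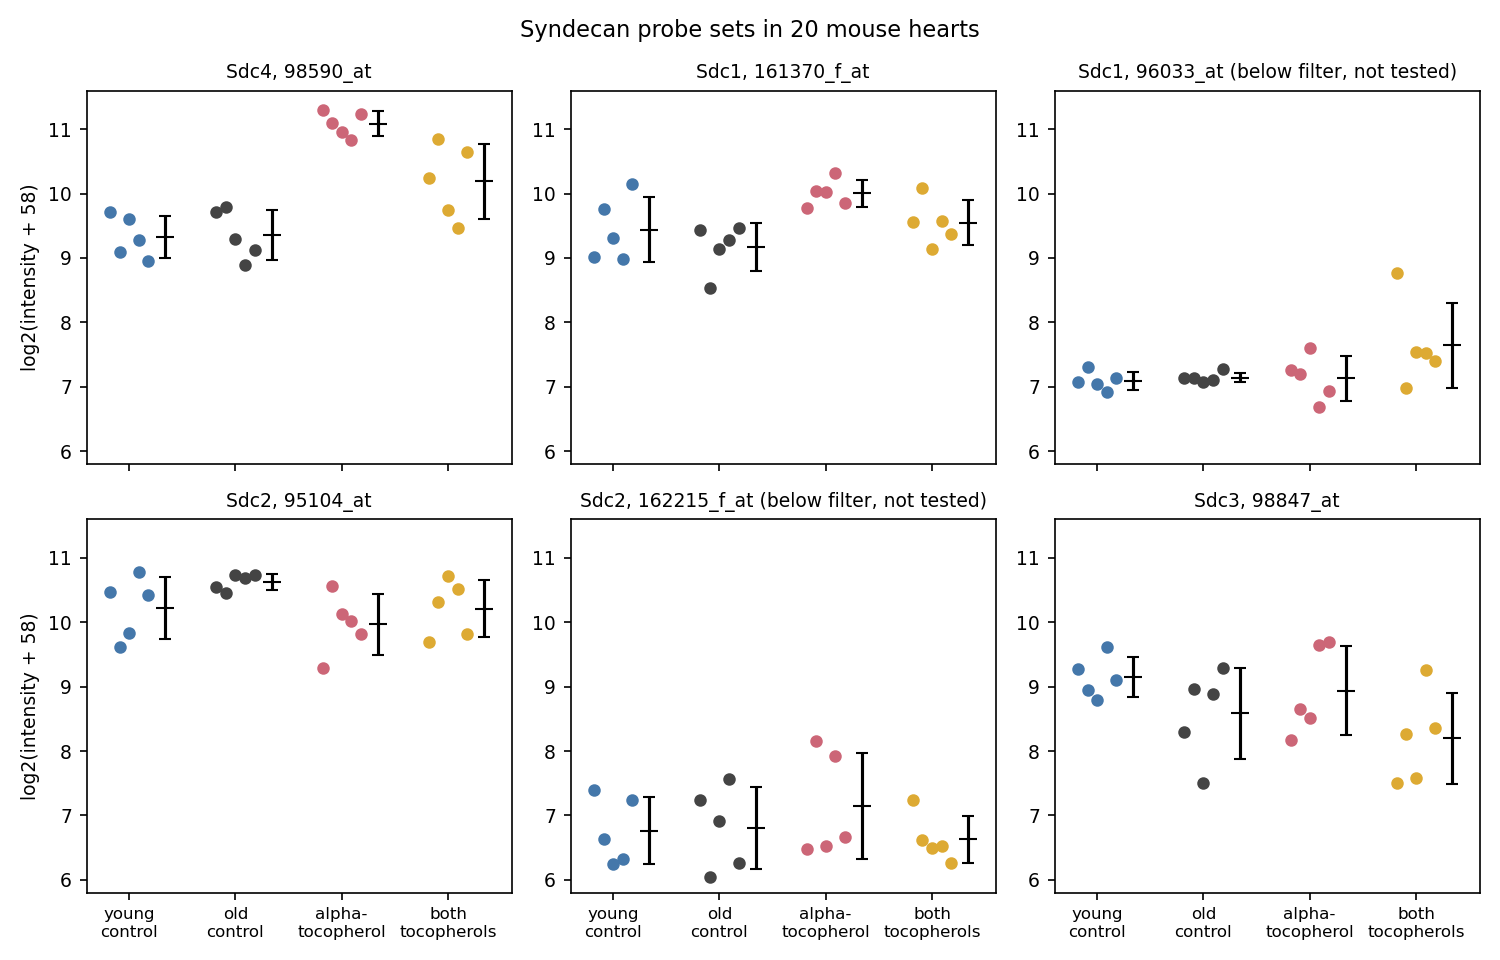
Values of the 6 syndecan probe sets as log2(intensity + 58), with 1 point per heart, in animal order from 1 to 5 within each of the 4 groups. Horizontal and vertical lines give the mean ± SD (n = 5). All 5 alpha-tocopherol hearts lie above every old control for Sdc4 and for Sdc1 161370_f_at, where 16.2% of all tested probe sets did not overlap. The 5 hearts on both tocopherols are spread between the alpha-tocopherol and control levels of Sdc4.

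Sdc4 had higher means on either supplement than in the controls, and its means hardly differed between the ages. The alpha-tocopherol values are those the family was chosen from. In animal order, young controls read 9.72, 9.1, 9.6, 9.28 and 8.95. Old controls read 9.71, 9.79, 9.29, 8.89 and 9.12. The ranges of young and old hearts lie almost on top of each other. Hearts on alpha-tocopherol read 11.3, 11.09, 10.95, 10.83 and 11.24. Hearts on both tocopherols read 10.24, 10.84, 9.75, 9.47 and 10.64. All alpha-tocopherol values stood above all control values of either age, whereas hearts 3 and 4 on both tocopherols fell among the controls, heart 2 reached the lower end of the alpha-tocopherol group, and hearts 1 and 5 lay in between.

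The Sdc4 means ± SD (n = 5) were 9.33 ± 0.33 in young controls, 9.36 ± 0.38 in old controls, 10.19 ± 0.58 on both tocopherols and 11.08 ± 0.2 on alpha-tocopherol. Neighbours at the bottom of this order, young and old controls, did not differ beyond their spread. On the deposited scale the mean intensities were 599.9 ± 150 and 617.6 ± 178 in young and old controls, 1184 ± 476 on both tocopherols and 2127 ± 292 on alpha-tocopherol. In whole heart, more Sdc4 RNA per cell and more cells that make Sdc4 cannot be told apart.

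**Figure D2:**
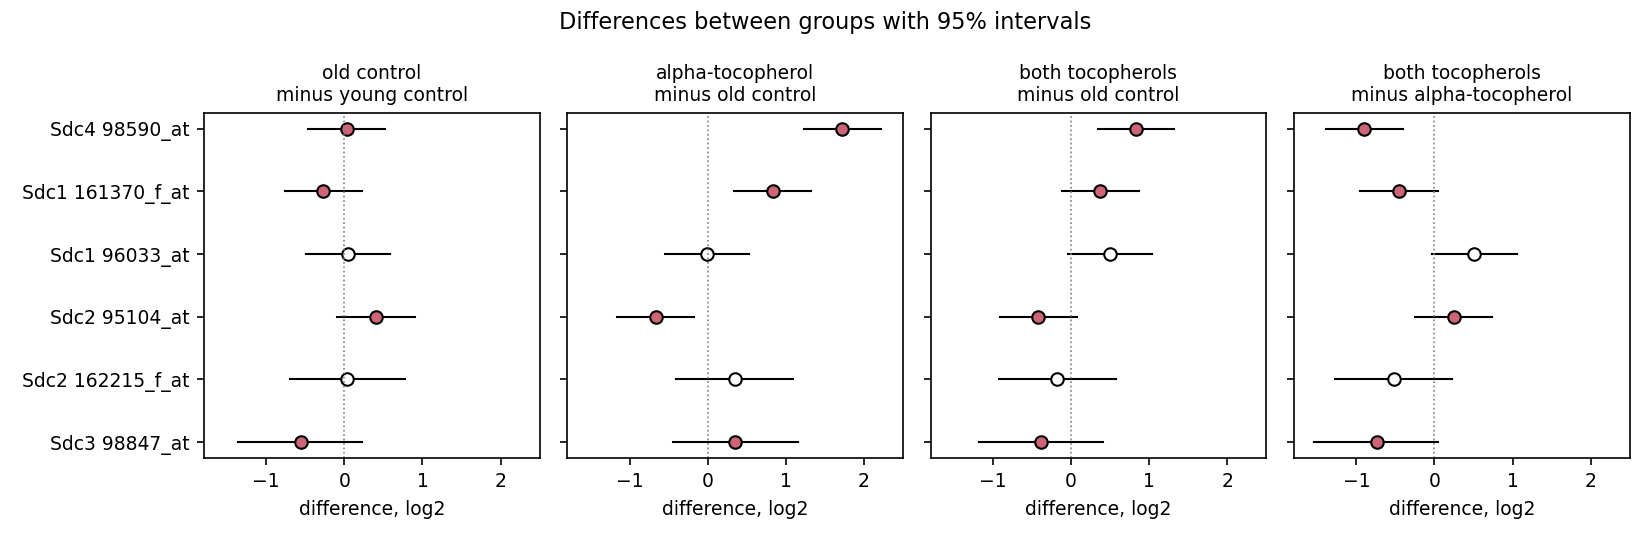
Differences between groups (log2 scale, points) with 95% confidence intervals (lines) for the 6 syndecan probe sets in each of the 4 comparisons. Filled points are the 4 tested probe sets and open points the 2 below the filter on dim values. Sdc4 is at 1.72 with alpha-tocopherol, the value the family was chosen from, and at 0.83 with both tocopherols. There its interval overlaps those of all other probe sets except the tested Sdc2 probe set. Differences between members were not tested.

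Against old controls, alpha-tocopherol hearts were higher in Sdc4 by 1.72 ± 0.24 (log2, SE), or 3.3-fold, with a 95% interval of 1.23 to 2.22. This is the value the family was chosen from. In that comparison 21.7% of all tested probe sets were called, and 16.2% separated the 5 supplemented from the 5 control arrays without overlap.

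With both tocopherols Sdc4 rose by 0.83 ± 0.24, or 1.78-fold, over old controls (limma, adjusted p = 0.039, 95% interval 0.34 to 1.32, n = 5 against 5). It was the 1 called member of the 4 tested, and in this comparison 6.43% of all tested probe sets were called. The arrays of these groups overlapped, as they did for every tested member, while 8.32% of all tested probe sets did not overlap. The call was lost when any 1 of 6 hearts was left out (hearts 1, 2 and 5 on both tocopherols, old controls 3, 4 and 5), with values from 0.67 to 1.01 and adjusted p from 0.014 to 0.11 over the 10 hearts left out in turn. It was also lost without the filter on dim probe sets (adjusted p = 0.058), and without old controls 1 and 4 together (0.79, adjusted p = 0.12). The comparison shares its old controls with the one the family was chosen from.

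Hearts on both tocopherols stood 0.9 ± 0.24 below those on alpha-tocopherol in Sdc4, a difference of -0.9 that missed the threshold (limma, adjusted p = 0.069, 95% interval -1.39 to -0.4). The highest heart on both tocopherols (10.84) and the lowest on alpha-tocopherol (10.83) just overlapped. Without heart 2 on both tocopherols the difference was -1.06 and was called (adjusted p = 0.035). In this comparison 0.564% of tested probe sets were called and 3.9% did not overlap, and 0 of the 4 tested syndecans were in either set. The doses of alpha-tocopherol differ between these groups, and the alpha-tocopherol arrays are among those the family was chosen from.

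Between old and young controls Sdc4 differed by 0.03 ± 0.24 (limma, adjusted p = 0.97, 95% interval -0.46 to 0.52). None of the 4 tested syndecans was called for age and none separated the ages without overlap, where 4.94% of all tested probe sets were called and 7.02% did not overlap.

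The 18S ribosomal RNA control of the array moved with Sdc4. Ribosomal RNA carries no long poly(A) tail, and the RNA labelled here had been selected on oligo-dT resin. Mean 18S control levels were 10.55 ± 0.27 in young controls, 10.74 ± 0.5 in old controls, 12.39 ± 0.21 on alpha-tocopherol and 11.26 ± 0.9 on both tocopherols (log2, SD, n = 5). Hearts 1 to 5 on both tocopherols read 11.73, 11.98, 10.76, 9.9 and 11.91 for 18S, and their order from high to low (2, 5, 1, 3, 4) was also their order in Sdc4. In each of the other groups the order in 18S was not the same as the order in Sdc4. The bacterial hybridization controls, transcripts of the kind spiked in at set amounts, were also highest with alpha-tocopherol, at 13.59 ± 0.17 against 12.74 ± 0.15 in old controls and 13.03 ± 0.36 on both tocopherols. Their order among hearts on both tocopherols was not that of Sdc4, since heart 5, with the lowest hybridization control (12.39), had the second highest Sdc4 value.

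**Figure D3:**
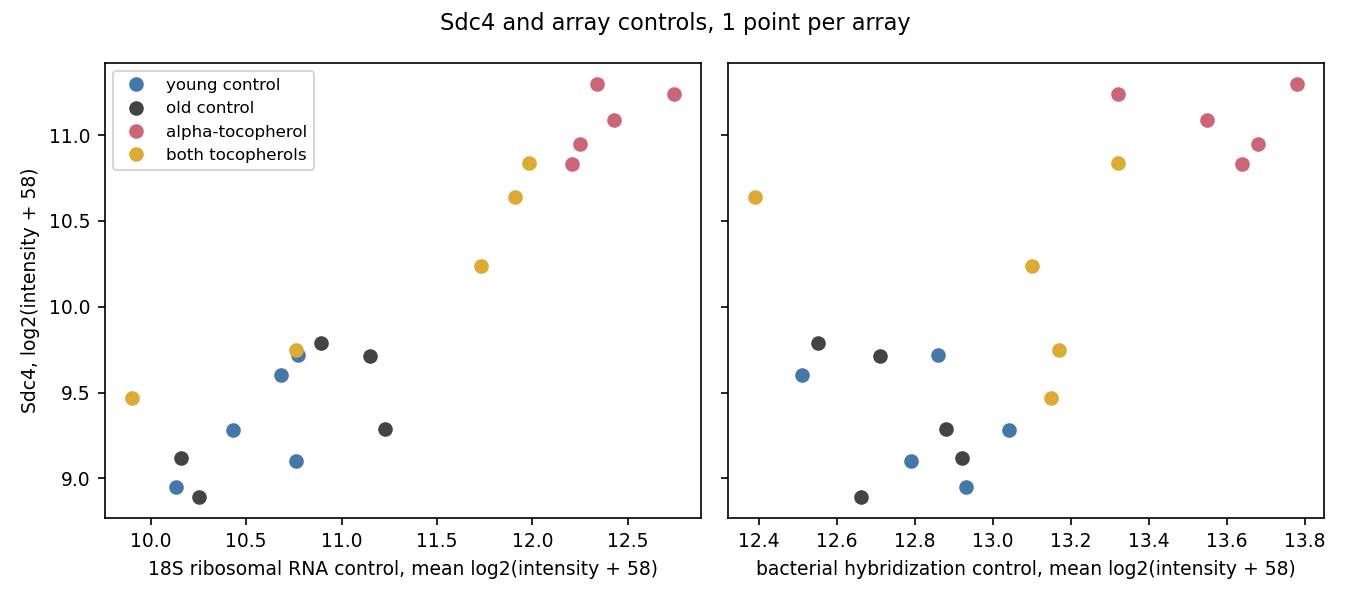
Sdc4 against the 18S ribosomal RNA control (left) and the bacterial hybridization controls (right), all as log2(intensity + 58), with 1 point per array coloured by group (n = 5 per group). Within the 4 groups Sdc4 was higher on arrays with a higher 18S control, by 0.61 ± 0.12 per unit in the fit with group means, while its slope on the hybridization controls was -0.55 ± 0.39.

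In a fit with the 18S level beside the group means, Sdc4 rose by 0.61 ± 0.12 per log2 unit of 18S within groups. That slope ranked 5 among 7453 by its p, had an adjusted p of 0.055 in limma, and stood beside 3 probe sets (0.0403%) that were called. In the same fit the Sdc4 difference was 0.72 ± 0.25 for alpha-tocopherol against old controls, 0.51 ± 0.17 for both tocopherols against old controls (limma, adjusted p = 0.089, not called) and -0.21 ± 0.21 for both tocopherols against alpha-tocopherol. With the hybridization controls in the fit these were 2.19 ± 0.4, 0.98 ± 0.26 (adjusted p = 0.04) and -1.21 ± 0.32. The 18S levels on alpha-tocopherol ran from 12.21 to 12.74. They did not overlap with old controls (10.16 to 11.23) or both tocopherols (9.9 to 11.98). Hybridization controls on alpha-tocopherol (13.32 to 13.78) also lay above those of old controls (12.55 to 12.92). Diet and control level are confounded there, and these adjusted alpha-tocopherol differences extend a slope beyond shared levels. Slopes of the other tested members on 18S were -0.04 ± 0.18 for Sdc1, -0.31 ± 0.16 for Sdc2 and -0.49 ± 0.26 for Sdc3.

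**Figure D4:**
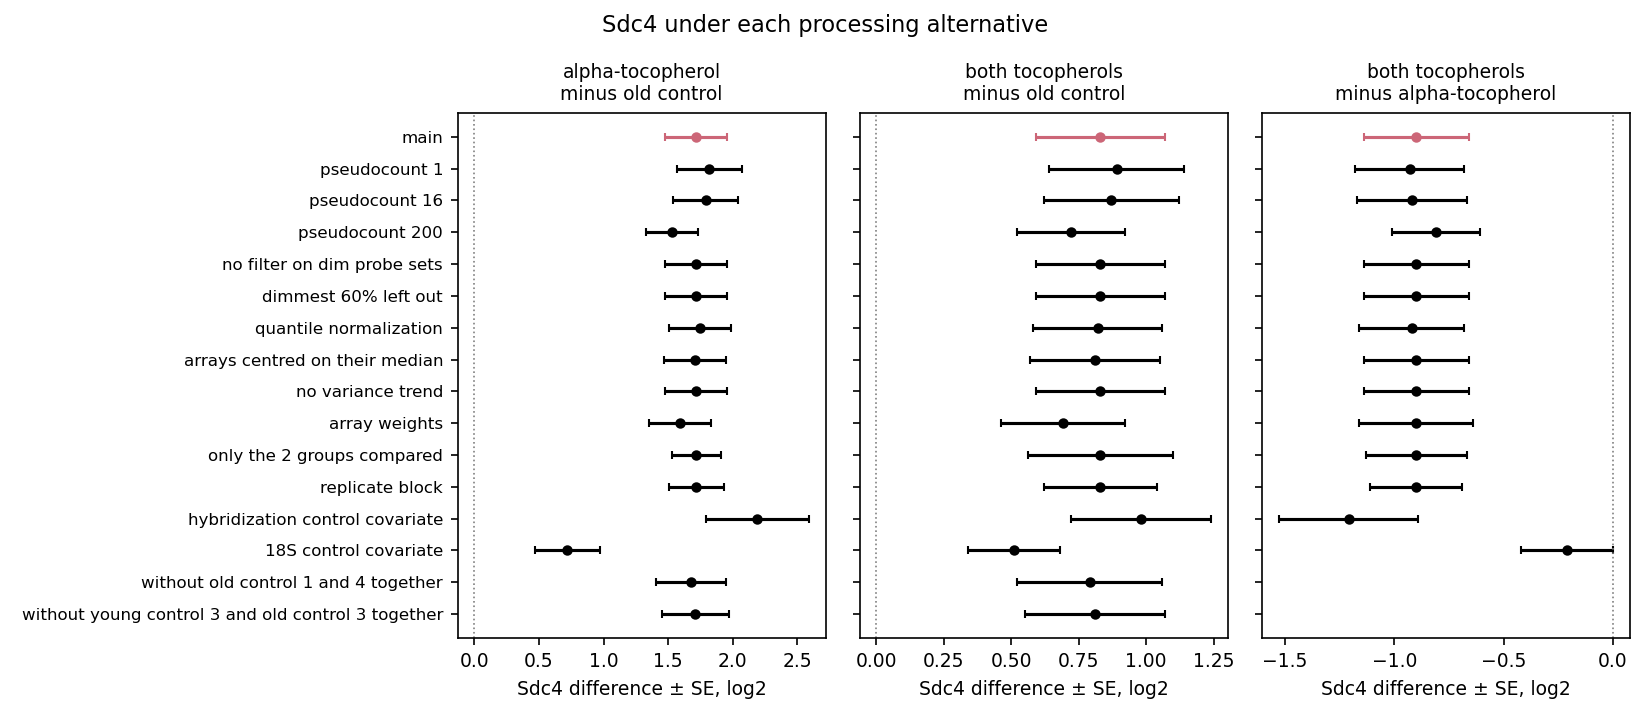
Difference of Sdc4 (log2, point, with its SE as a bar) in the 3 diet comparisons under the main processing (red) and each alternative (black); the dotted line marks 0. Old controls 1 and 4, and young and old controls 3, were left out together only where a comparison uses old controls. Among these settings the 18S level as a covariate moved the Sdc4 values most toward 0, to 0.72, 0.51 and -0.21. The 18S levels on alpha-tocopherol did not overlap with those of old controls or both tocopherols, so 0.72 and -0.21 extend a slope beyond shared levels.

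Genes most like Sdc4 over the 20 arrays were chosen among 5662 named genes by the smallest root mean square difference after each gene's own mean was taken off. They were Slc39a1 (0.292), a zinc transporter, Gnb1 (0.312), a beta subunit of heterotrimeric G proteins, Nipsnap2 (0.325), a mitochondrial protein, Sod1 (0.373), the cytosolic copper and zinc superoxide dismutase, and Tmem250-ps (0.378). The median over all genes was 0.871, and Sdc4's own deviation from its mean was 0.801. Sod1 read 13.48 and 13.43 in young and old controls, 14.65 on both tocopherols and 15.84 on alpha-tocopherol. Slc39a1 read 10.85 and 11 in young and old controls, 11.45 on both tocopherols and 12.22 on alpha-tocopherol, so that in either gene the supplemented groups stood above the controls in the same order.

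Most of these genes also followed the 18S control within groups. They were chosen for likeness to Sdc4 over the same arrays, deviations within groups included, so this is in part given by the choice. The 18S slope was 0.81 ± 0.09 for Sod1, 0.67 ± 0.1 for Nipsnap2 and 0.58 ± 0.09 for Gnb1, which held ranks 1, 2 and 3 of all 7453 probe sets by p and were the 3 called. Slc39a1 had a slope of 0.51 ± 0.11 and rank 10, and Tmem250-ps one of 0.2 ± 0.1 and rank 597. Genes that resemble Sdc4 over the same 20 arrays share those arrays' 18S levels, so their slopes are not independent of that of Sdc4.

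Sdc1, as read by 161370_f_at, was also high with alpha-tocopherol. Young controls read 9.01, 9.76, 9.31, 8.98 and 10.15, and old controls 9.44, 8.54, 9.14, 9.28 and 9.46. Hearts on alpha-tocopherol read 9.77, 10.04, 10.03, 10.32 and 9.85, and those on both tocopherols 9.56, 10.08, 9.14, 9.58 and 9.37. The alpha-tocopherol hearts stood above all old controls, where 16.2% of all tested probe sets did not overlap. They overlapped with young controls and with hearts on both tocopherols. The difference from old controls was 0.83 ± 0.24 with alpha-tocopherol (95% interval 0.34 to 1.32), again a description.

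No tested difference of Sdc1 passed the threshold. With both tocopherols it was 0.37 ± 0.24 above old controls (limma, adjusted p = 0.37, 95% interval -0.12 to 0.87), for age it was -0.27 ± 0.24 (adjusted p = 0.63, -0.76 to 0.22), and between the supplements it was -0.46 ± 0.24 (adjusted p = 0.35, -0.95 to 0.04). The dim probe set 96033_at did not show the same pattern. Its group means were 7.09 ± 0.14, 7.14 ± 0.08, 7.13 ± 0.35 and 7.64 ± 0.67 in young controls, old controls, alpha-tocopherol and both tocopherols, the last resting on 1 heart at 8.76. Its difference for alpha-tocopherol was -0.01 ± 0.26, against 0.83 for the other probe set of the gene.

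Markers of cells in which syndecan-1 is best known were given beside it. Of 5 tested plasma and B cell genes, 1 (Ms4a1, a B cell surface protein) was called higher with alpha-tocopherol, by 0.79 ± 0.21, where 21.7% of all tested probe sets were called, and 0 of 5 were called with both tocopherols. With alpha-tocopherol the others were at 0.63 (Jchain), 0.14 (Ighm), -0.16 (Xbp1) and -0.37 (Cd79a), and the list's median was 0.14. Of 3 tested epithelial and mesothelial genes, 0 were called in any of the 4 comparisons. The part of such cells in the Sdc1 values was not tested.

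Sdc2, as read by 95104_at, had lower means on either supplement than in old controls, and no tested difference passed the threshold. Young controls read 10.47, 9.61, 9.83, 10.78 and 10.42, and old controls 10.55, 10.45, 10.74, 10.68 and 10.73. Hearts on alpha-tocopherol read 9.29, 10.57, 10.13, 10.02 and 9.82, and those on both tocopherols 9.69, 10.32, 10.72, 10.52 and 9.81. Old controls were close together (10.63 ± 0.13), and every other group was spread more widely and overlapped with them. The difference was -0.66 ± 0.24 for alpha-tocopherol (95% interval -1.16 to -0.17, a description) and -0.42 ± 0.24 for both tocopherols (limma, adjusted p = 0.31, -0.91 to 0.08). For age it was 0.41 ± 0.24 (adjusted p = 0.4, -0.09 to 0.9), and between the supplements 0.25 ± 0.24 (adjusted p = 0.65, -0.25 to 0.74). With the 18S level in the fit the last difference was -0.11 and the alpha-tocopherol difference -0.14 ± 0.35. Both extend a slope beyond shared 18S levels. The dim probe set 162215_f_at had group means between 6.63 and 7.15 and differed by 0.35 for alpha-tocopherol, with the opposite sign.

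Fibroblast markers were given beside Sdc2 because this syndecan is best known from such cells. Of 12 fibroblast markers tested, 8 fell and 1 rose with alpha-tocopherol, with a median difference of -0.59, and 4 fell and 1 rose with both tocopherols, with a median of -0.37. Their summed intensity ranged from 107400 to 130800 in young controls, 111400 to 123500 in old controls, 87380 to 126500 on alpha-tocopherol and 81050 to 118000 on both tocopherols, and none was at 0 on any array. Among endothelial markers 3 of 11 fell with either supplement, and 0 rose. Of 6 tested smooth muscle and pericyte markers, 3 fell with alpha-tocopherol (median -0.61) and 1 with both tocopherols (median -0.5). Of 9 tested macrophage markers, 5 fell with alpha-tocopherol and 1 with both tocopherols. Of 4 tested liver transcripts 2 fell with either supplement, of which Alb, the serum albumin gene, was at -4.71 ± 0.64 with alpha-tocopherol and -4.33 ± 0.64 with both tocopherols. Of all tested probe sets 21.7% were called with alpha-tocopherol and 6.43% with both tocopherols. The part of these cells in the Sdc2 values was not tested.

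Sdc3 varied widely from heart to heart, with SDs of 0.32 in young controls, 0.71 in old controls, 0.7 on alpha-tocopherol and 0.71 on both tocopherols. Young controls read 9.28, 8.95, 8.79, 9.61 and 9.11, and old controls 8.29, 8.97, 7.5, 8.88 and 9.29. Hearts on alpha-tocopherol read 8.17, 8.66, 8.51, 9.65 and 9.7, and those on both tocopherols 7.51, 8.27, 7.58, 9.26 and 8.36. Every pair of groups overlapped. The differences were -0.56 ± 0.38 for age (limma, adjusted p = 0.49, 95% interval -1.36 to 0.23), -0.39 ± 0.38 for both tocopherols (adjusted p = 0.59, -1.18 to 0.41) and -0.74 ± 0.38 between the supplements (adjusted p = 0.35, -1.54 to 0.05). For alpha-tocopherol against old controls the difference was 0.35 ± 0.38, with an interval of -0.44 to 1.15.

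The lowest old control in Sdc3, heart 3, was the array whose Gapdh control gave a difference of 1.21 between its 3′ and 5′ probe sets, where no other array exceeded 0.19. Its actin control gave 0.23, below the 0.29 of old control 5. Hearts 1 and 3 on both tocopherols were about as low in Sdc3 (7.51 and 7.58), with Gapdh differences of 0.01 and -0.14. A link between this control and Sdc3 was not tested. Without old control 3 the age difference of Sdc3 was -0.29. Of 4 tested Schwann cell and neural markers, 1 (Sox10, a transcription factor of glia) was called higher with alpha-tocopherol (21.7% of all called), by 0.52 ± 0.13, and 0 were called in the 3 other comparisons. The other markers were at 0.1 (Mbp), -0.43 (Ncam1) and -0.26 (Th) with alpha-tocopherol, and the list's median was -0.08.

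By the same measure of likeness, the genes nearest to Sdc1 161370_f_at were Dpep3 (0.27), a dipeptidase, Rbfox2 (0.293), a splicing factor, and Jund (0.302), a subunit of the AP-1 transcription factor. Nearest to Sdc2 95104_at were Pccb (0.237), a subunit of mitochondrial propionyl-CoA carboxylase, Sirt3 (0.283), a mitochondrial deacetylase, and Frmd5 (0.285). Pccb followed the group order of Sdc2, with 10.21 in young controls, 10.59 in old controls, 9.97 on alpha-tocopherol and 10.16 on both tocopherols. Nearest to Sdc3 were Stx2 (0.455), a syntaxin, Abcc1 (0.495), a membrane transporter, and Rpl22 (0.51), a ribosomal protein. The members' own deviations from their means were 0.449 for Sdc1, 0.437 for Sdc2 and 0.67 for Sdc3.

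The hearts carried the RNA of heart muscle. Of 8 cardiomyocyte markers tested, none was at 0 on any array, and their summed intensity ranged from 588800 to 734500 in young controls, 596600 to 750900 in old controls, 713300 to 868700 on alpha-tocopherol and 521300 to 726500 on both tocopherols. Beside the Sdc4 values, 4 of 8 rose and 0 fell with alpha-tocopherol (21.7% of all called), with a median of 0.19. With both tocopherols 0 of the 8 markers were called (6.43% of all called), with a median of -0.09. Their part in the Sdc4 values was not tested.

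Heparan sulfate chains are built in the Golgi and edited at the cell surface. Of 11 tested genes of heparan sulfate chain synthesis, 1 fell with both tocopherols (6.43% of all tested probe sets were called) and 0 rose, with a median of -0.1 against -0.01 for all tested probe sets. That gene was Extl3, a glycosyltransferase that starts the chain, at -0.61 ± 0.17 (limma, adjusted p = 0.032). With alpha-tocopherol 1 of the 11 fell (21.7% of all were called), Ugdh, which makes the UDP-glucuronate used for the chain, at -0.82 ± 0.17, and the median was 0.02 against -0.02 for all. None of the 11 was called for age or between the supplements. Of 11 genes of chain trimming and syndecan shedding on the array 4 could be tested, and 0 of these were called in any comparison.

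Other heparan sulfate proteoglycans moved in different directions. For age 4.94% of all tested probe sets were called. Of 7 tested proteoglycans, Gpc3, a glypican anchored to the membrane by a lipid, fell with age, at -0.66 ± 0.17 (limma, adjusted p = 0.023). With both tocopherols 2 fell and 0 rose, where 6.43% of all tested probe sets were called. These were Col18a1, the collagen that gives endostatin, at -0.68 ± 0.18 (adjusted p = 0.027, with its other tested probe set of opposite sign), and Hspg2, which encodes perlecan of the basement membrane, at -0.61 ± 0.18 (adjusted p = 0.043). With alpha-tocopherol 2 rose and 0 fell, where 21.7% of all were called, namely Tgfbr3, a TGF-beta co-receptor, at 0.65 ± 0.14, and Gpc1, a glypican, at 0.32 ± 0.11. Between the supplements 0 of 7 were called, with a median of -0.28 against 0.01 for all.

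Ligands and co-receptors of syndecans held the largest decreases among these lists with either supplement against old controls. Of 23 tested, 2 fell and 1 rose with both tocopherols (6.43% of all called), with a median of -0.17. Col3a1, a fibrillar collagen, fell by 1.54 ± 0.26 (limma, adjusted p = 0.0015), and this call held in all 10 leave-one-out fits and all 15 other settings. Postn, which encodes the matrix protein periostin, fell by 1.01 ± 0.27 (adjusted p = 0.029). Lpl, the lipoprotein lipase held at cell surfaces by heparan sulfate, rose by 0.41 ± 0.12 (adjusted p = 0.036).

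With alpha-tocopherol 4 of these 23 fell and 1 rose, with a median of -0.25, and these calls are near the share of all tested probe sets called (21.7%). Postn was at -1.49 ± 0.27, Col3a1 at -1.39 ± 0.26 and Vegfa, a heparin-binding growth factor of blood vessels, at -0.62 ± 0.18. Col3a1 and Postn are also among the 12 fibroblast markers, so the lists are not independent. With age 1 of 23 fell and 0 rose, near the share of all tested probe sets called for age (4.94%). It was Hbegf, a heparin-binding growth factor of the EGF family, at -0.61 ± 0.15 (limma, adjusted p = 0.016). Between the supplements 1 of 23 was called, where 0.564% of all tested probe sets were called. It was Itgb1, the integrin beta-1 chain, read by a probe set of the _f_at kind. Itgb1 was higher by 0.48 ± 0.11 with both tocopherols than with alpha-tocopherol (limma, adjusted p = 0.043). The comparisons of either supplement with old controls share those controls, so the values for Col3a1 and Postn are not independent of each other.

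**Figure D5:**
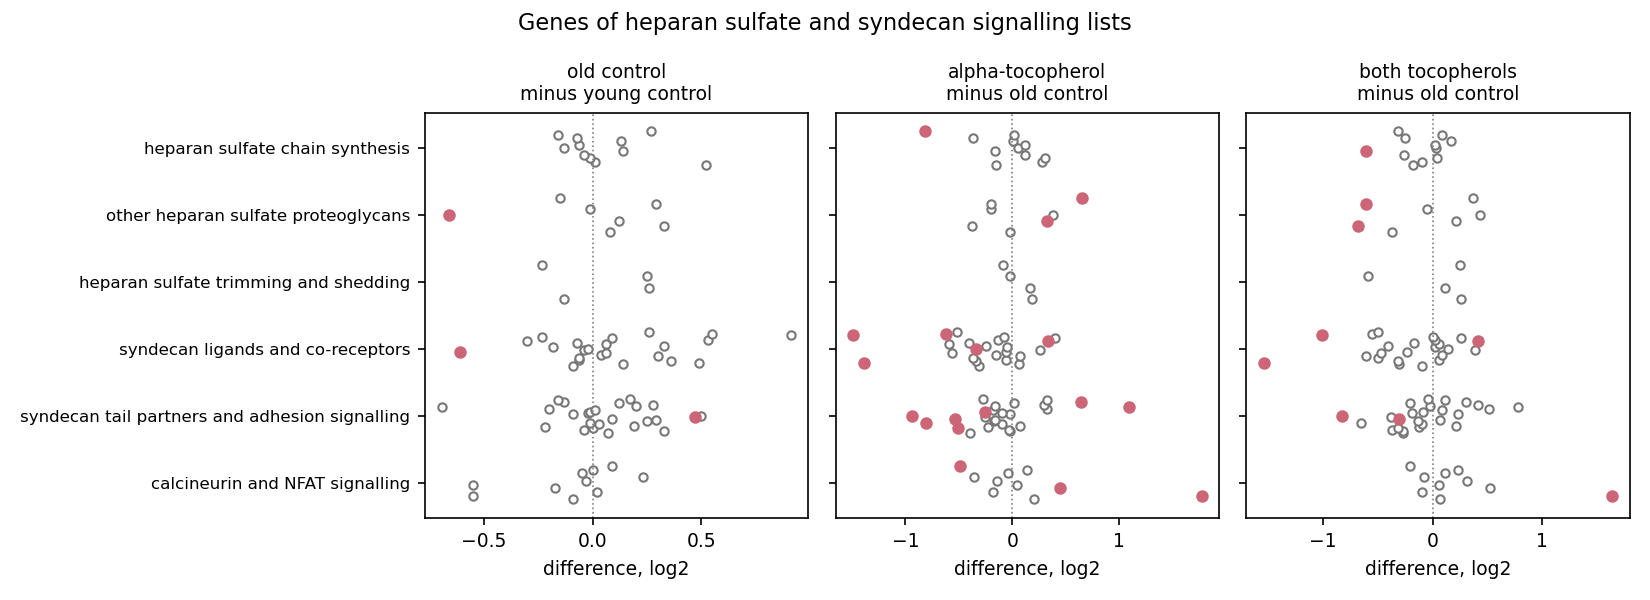
Differences (log2) of the tested genes of 6 lists of heparan sulfate and syndecan signalling in 3 comparisons, with 1 point per gene. Filled red points passed an adjusted p of 0.05 over 7453 probe sets and open points did not; vertical offsets within a list only separate the points. In the comparisons of either supplement with old controls, the ligand list holds the most negative called genes, Col3a1 and Postn. There the calcineurin and NFAT list holds the most positive, Myoz1. None of these genes was called for age.

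Partners of the syndecan tail included protein kinase C alpha. Of 25 tested genes of tail binding and adhesion signalling, 2 fell and 0 rose with both tocopherols, with a median of -0.1, near the share of all tested probe sets called (6.43%). Pdcd6ip, which encodes ALIX, a partner of the adaptor syntenin in exosome formation, fell by 0.31 ± 0.08 (limma, adjusted p = 0.029). Prkca, the kinase activated by syndecan-4, fell by 0.83 ± 0.25 (adjusted p = 0.047), while Sdc4 rose in that comparison. The Prkca call held in 2 of 10 leave-one-out fits and in 6 of 14 other settings.

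With alpha-tocopherol 5 of these 25 fell and 2 rose, with a median of -0.16, and 21.7% of all tested probe sets were called. The smallest p-values were those of Pdcd6ip, at -0.54 ± 0.08, Tln1, the integrin activator talin, at 0.64 ± 0.12 (1 of its 3 tested probe sets had the opposite sign), and Prkca, at -0.94 ± 0.25. With age 1 of 25 rose, near the share of all tested probe sets called for age (4.94%). It was Pdlim7, a PDZ and LIM protein of the actin cytoskeleton, at 0.47 ± 0.13 (limma, adjusted p = 0.037, with its other probe set of opposite sign). None of the 25 was called between the supplements.

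Of 10 tested genes of calcineurin and NFAT signalling, 1 rose and 0 fell with both tocopherols (6.43% of all called). Myoz1, a calsarcin that binds calcineurin at the Z-disc, rose by 1.64 ± 0.4 (limma, adjusted p = 0.019), and lost this call without heart 1 on both tocopherols and without old controls 1 and 4 together. With alpha-tocopherol 2 rose and 1 fell (21.7% of all called), with a median of 0 against -0.02 for all. Myoz1 was at 1.77 ± 0.4, Nfatc2, an NFAT transcription factor, at 0.45 ± 0.16, and Rcan1, an inhibitor of calcineurin and an NFAT target, at -0.49 ± 0.17. None of the 10 was called for age or between the supplements.

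Calls in these lists differed in how far they held, and no named gene changed sign in any setting. For both tocopherols against old controls, the calls of Extl3 (3 of 10 leave-one-out fits), Col18a1 (5), Hspg2 (2), Lpl (4), Pdcd6ip (4) and Postn (6) were lost without one heart or another. For age, Hbegf was called in all 10 leave-one-out fits, Gpc3 in 6 and Pdlim7 in 2, and none of these calls held without old controls 1 and 4 together. Between the supplements Itgb1 was called in 3 of 10. For alpha-tocopherol, Ugdh, Tgfbr3, Postn, Col3a1 and Tln1 were called in all 10 and lost the call only with the hybridization controls or 18S as a covariate, while Gpc1 was called in 3, Nfatc2 in 2 and Rcan1 in 2.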

How the data were processed

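Hearts of 20 mice, 1 array each, were compared. Per the labels' protocols, total RNA from frozen tissue was selected on oligo-dT resin and transcribed to biotin-labelled RNA; the program behind the values was not given in the sources used. The authors deposited a linear intensity per probe set (12488) that, from the values, was scaled to a 2% trimmed mean of 1501 to 1501.1 per array. The number of arrays limits the precision, and the median SE of a difference was 0.179. Of 12422 probe sets that are not controls, 10833 had 1 symbol in the platform annotation, 396 several and 1193 none; 10817 matched RefSeq (GRCm38.p6) and 0 symbols changed.

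Values were log2(intensity + 58), without the 66 control probe sets and the dimmest 40%. The model was limma 3.58.1 (R 4.3.3), with 1 mean per group, a variance trend, robust shrinkage and 16 residual degrees of freedom; tests were two-sided. A gene was read by its probe set with the highest mean. The members and gene lists were chosen with earlier results of these data known. Up to 3 called genes per list and comparison were named, by smallest p, and the 5 genes nearest to Sdc4 and 3 nearest to each other member, with called markers where a member is best known from that cell type. The steps were tested on simulated data. Alternatives were other pseudocounts, filters, scalings, variance models, samples and covariates. Sequences of proteins and probes were not used here. Intervals are 95% limits from the moderated degrees of freedom.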

Additional observations from a re-analysis of the deposited data

Results flagged for a closer look

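In the dim Sdc1 probe set 96033_at, old control 5 read 7.27 and stood far above the other old controls, which lay between 7.08 and 7.13. The group's whole range was small, and this probe set was below the filter on dim values. Of 24 groups of 5 values examined, 1 held such a value, and chance gives about 1 in 20.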

How the results depend on the processing

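Of 612 recomputed values of single members, 12 lost a call and 5 gained one. Another 6 moved by more than the spread between replicates. All 6 were for alpha-tocopherol against old controls, where members were described without a test. They were 2 of Sdc4, 2 of Sdc2 95104_at, 1 of Sdc1 161370_f_at and 1 of Sdc3. The 612 include the slope of Sdc4 on 18S in 20 fits without 1 array and 4 without a group. That slope made up 4 of the 5 gained calls. In all 20 changed sign: 13 in the dim probe sets 162215_f_at (age, 0.04 to as low as -0.36; both tocopherols, -0.18 to as high as 0.22) and 96033_at (alpha-tocopherol, -0.01 to as high as 0.1), and 7 in tested probe sets. The last were Sdc4 for age (0.03), at -0.02 with the hybridization controls as a covariate, -0.08 with 18S as a covariate, and between -0.08 and 0.14 with 1 heart left out (-0.06 without old control 1, -0.08 without old control 2, -0.03 without young control 2, -0.07 without young control 5), and Sdc2 95104_at between the supplements, at -0.11 with 18S. Sdc4 with both tocopherols lost its call in 6 of 15 other settings: no filter (adjusted p = 0.058), array weights (0.69, 0.053), only the 2 groups compared (0.079), 18S (0.51, 0.089), without old controls 1 and 4 (0.79, 0.12), and without young and old control 3 (0.81, 0.063). The cause was not tested. The slope of Sdc4 on 18S without each array or group was added after seeing the data.

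Counts of called probe sets moved more. For both tocopherols against alpha-tocopherol (42) they were 11 without the filter, 64 with the dimmest 60% left out, 23 with median centring, 11 without a variance trend, 7 with array weights, and 0 with only the 2 groups compared or with either covariate; with 1 heart left out they ran from 0 (heart 4 on both tocopherols) to 79. For both tocopherols against old controls (479) they were 858 with array weights, 242 with the hybridization covariate, 162 without old controls 1 and 4, and 263 to 447 with 1 heart left out. For alpha-tocopherol (1619) they were 144 and 142 with the hybridization and 18S covariates, 981 without old controls 1 and 4, and 1179 to 1556 with 1 heart left out. For age (368) they were 731 with array weights, 150 without old controls 1 and 4, and 258 to 367 with 1 heart left out.

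Sample numbers did not pair the animals: over 30 same-numbered pairs the correlation of deviations ran from -0.08 to 0.1. With a replicate block the counts were 347 for age, 1578 for alpha-tocopherol, 451 for both tocopherols and 34 between the supplements, and Sdc4 with both tocopherols stood at 0.83 (limma, adjusted p = 0.03).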

Other observations

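The slope of Sdc4 on the 18S control was computed in each group alone, after the data were seen. It was 0.8 in young controls, 0.54 in old controls, 0.61 on alpha-tocopherol and 0.61 on both tocopherols, with 5 hearts each and no test. The span of 18S levels was 0.64, 1.07, 0.53 and 2.08 log2 units in these groups, so the hearts on both tocopherols carried most of the information. In the fit over all groups, leaving out each of the 20 arrays in turn gave slopes from 0.56 to 0.68, ranks by p from 4 to 22 among 7453 probe sets, and limma adjusted p from 0.015 to 0.19. It was called in 4 of these 20 fits. Without the group on both tocopherols the slope was 0.6 ± 0.22, with rank 253 and an adjusted p of 0.4.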
